A study of Homo sapiens with 16 samples.

Results

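The antibody capture lists of HEK293T cells, a human embryonic kidney line, held 943 peaks inside introns of protein-coding genes, out of 22728 peaks in 6 lists. A peak was taken when it lay in the body of a protein-coding gene, overlapped no exon of any GENCODE gene and was over 1 kb from every protein-coding transcript start. It also had to hold no canonical G-quadruplex signature, which is 4 runs of at least 3 guanines on either strand with loops of 1 to 7 bases. Peaks of chromosomes 13 and X and of chromosome 9 from 79.1 to 80.0 Mb were left out. Of the 22728 peaks, 15478 remained on the allowed chromosomes, 1680 of these lay in a coding gene body, 1072 touched no exon, 1035 were over 1 kb from a start, and 92 of those were dropped for the signature. All values refer to the hg38 build.

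In AbC G4-ChIP, fixed and permeabilized cells are bathed in 1H6, an antibody against G-quadruplexes, before the chromatin is fixed again, sheared and pulled down. CT cells carried a stable non-targeting shRNA and KD cells a stable shRNA that targets CGGBP1, and neither line received another genetic change within the study. CTnuc and KDnuc were captured without added DNA and sequenced on an Ion Torrent. CTut and KDut received Control DNA that had been bound to the antibody beforehand, CTtr and KDtr were transfected with that Control DNA, and these 4 were sequenced on a MinION. Each list comes from a single library pooled from several captures, so the 3 lists of a group differ in protocol as well as in cells, and p-values measure only the spread between them. The lists hold no transcript levels, so the knock-down of CGGBP1 could not be checked in them, and they hold no read totals, so sequencing depth was not used here.

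A G-quadruplex is a four-stranded DNA fold in which runs of guanines stack as planar tetrads. Such folds are best known from promoters and telomeres, and long introns also carry many guanine-rich stretches, often in tandem repeats whose units are copied head to tail. CGGBP1 is a DNA-binding protein that recognises CGG repeats and other GC-rich or repeated DNA.

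The intronic peaks that recurred at fixed positions are best seen in their sequence. The following are the most frequent exact repeat units inside recurrent tandem arrays, read from the plus strand of hg38, with runs of at least 3 guanines or cytosines in capitals.
PTPRN2, chr7:158146926-158146963: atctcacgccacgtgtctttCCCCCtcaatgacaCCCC
FAM120B, chr6:170398381-170398419: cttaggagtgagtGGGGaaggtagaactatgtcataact
TTC34, chr1:2652295-2652334: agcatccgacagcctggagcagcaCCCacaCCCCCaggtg
TMEM242, chr6:157311016-157311049: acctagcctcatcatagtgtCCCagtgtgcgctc
MPPED1, chr22:43495511-43495525: ggtggtggtggaggt
ACTN2, chr1:236713703-236713769: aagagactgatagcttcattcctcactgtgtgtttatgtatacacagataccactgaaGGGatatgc

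The unit occurred in 26 exact copies in PTPRN2, 17 in FAM120B, 7 in the TTC34 region of highest fold, 8 in TMEM242, 29 in MPPED1 and 20 in ACTN2. The unit of MPPED1 held no run of 3 guanines or cytosines at all, although 66.7% of it was guanine.

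Windows of 120 bases are shown next from 2 regions that were listed in all 6 lists, each from the middle of the longest stretch that the largest number of lists covered, followed by a window of GAREM1, where peaks were many and positions rarely shared. The capitals mark the same runs.
DUX4, chr4:190181327-190181446: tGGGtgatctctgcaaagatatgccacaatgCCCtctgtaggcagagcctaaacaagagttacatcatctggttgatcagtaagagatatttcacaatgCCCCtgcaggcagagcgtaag
ZNF717, chr3:75704944-75705063: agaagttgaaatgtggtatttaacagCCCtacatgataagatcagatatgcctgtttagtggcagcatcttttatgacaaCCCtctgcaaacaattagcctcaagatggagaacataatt
GAREM1, chr18:32373863-32373982: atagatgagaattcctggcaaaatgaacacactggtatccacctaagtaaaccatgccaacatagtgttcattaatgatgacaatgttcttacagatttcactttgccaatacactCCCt

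Intronic peaks were more numerous in the KD list of each of the 3 pairs. CTnuc held 39 and KDnuc 484, CTut 65 and KDut 160, and CTtr 72 and KDtr 123. As a share of the listed peaks these were 1.03% (95% exact binomial interval 0.732 to 1.40) for CTnuc and 6.24% (5.71 to 6.80) for KDnuc. The share was 1.86% (1.44 to 2.36) for CTut and 5.47% (4.67 to 6.35) for KDut. It was 3.04% (2.39 to 3.82) for CTtr and 5.15% (4.30 to 6.11) for KDtr. The intervals cover counting error only. In the full lists the 3 KD shares lay closer to each other than the 3 CT shares did, and the groups did not overlap. With lists cut to equal size the groups overlapped, from 0.803% to 5.07% in KD and from 0.591% to 3.04% in CT. The KD shares were then the wider apart. With a minimum of 4 on the -log10 q the groups also overlapped, with 1.20% in KDnuc and 2.60% in KDut below 3.13% in CTtr. Within each pair KD stayed higher at both settings.

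The mean rise in the share was 3.64 percentage points ± 1.55 (SD of the difference, n = 3 pairs), and the number rose by 197 ± 216 on average, with the largest step in the nuc pair. The exact sign-flip permutation test gave p = 0.25 (two-sided, n = 3 pairs) for both, which is the smallest p that 3 pairs allow. Peaks were not simply more numerous everywhere in KD, since intergenic peaks fell from 2007 in CTut to 1169 in KDut and from 1093 in CTtr to 944 in KDtr, while they rose from 2345 in CTnuc to 3977 in KDnuc. Of intronic and intergenic peaks together, the intronic ones made up 1.64% in CTnuc and 10.8% in KDnuc, 3.14% in CTut and 12.0% in KDut, and 6.18% in CTtr and 11.5% in KDtr. The gain in the nuc pair rested on peaks of low score: with each list cut to its 2367 highest-scoring peaks, 14 intronic peaks remained in CTnuc and 19 in KDnuc, against 27 and 92 in the ut pair and 72 and 120 in the tr pair. With a minimum of 4 on the -log10 q the numbers were 9 in CTnuc and 32 in KDnuc, 27 in CTut and 32 in KDut, and 29 in CTtr and 44 in KDtr.

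**Figure D1:**
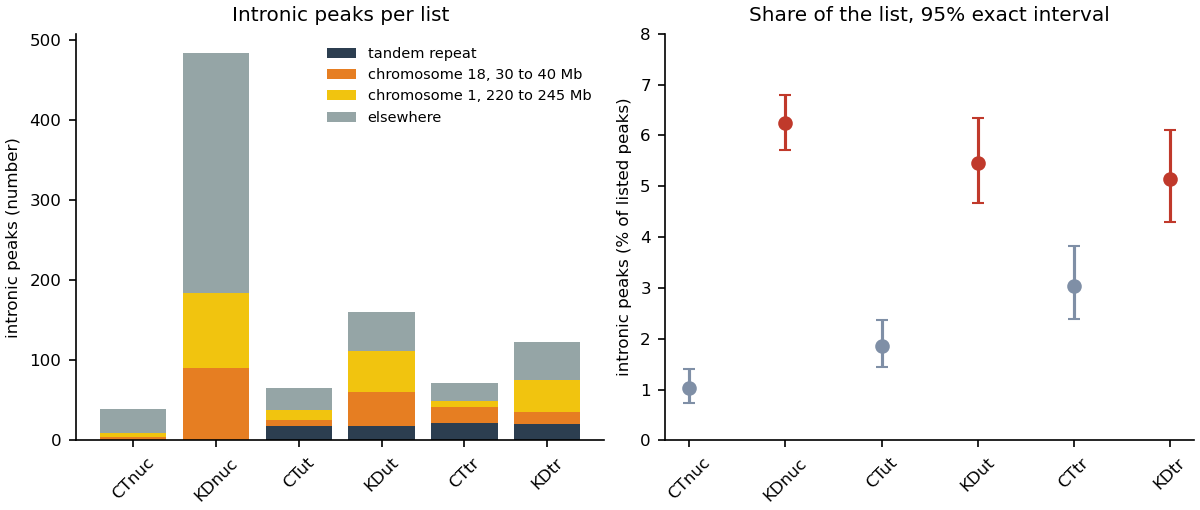
The left panel stacks the number of intronic peaks of each list by where they lie, and the right panel gives their share of the listed peaks with 95% exact binomial intervals. The chromosome 1 and elsewhere parts are taller in each KD list, the chromosome 18 part is taller in KDnuc and KDut but not in KDtr, and the tandem repeat part is 18 in both CTut and KDut.

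The bases covered by intronic peaks rose from 38664 in CTnuc to 392457 in KDnuc, from 124715 in CTut to 262543 in KDut and from 106087 in CTtr to 179664 in KDtr. The number of genes with an intronic peak rose from 31 to 329, from 52 to 101 and from 52 to 87 in the same pairs. Both differences gave p = 0.25 in the exact sign-flip permutation test over n = 3 pairs.

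The peaks themselves were weak. Fold enrichment over the input had a median of 4.75 in CTnuc, 4.30 in KDnuc, 3.36 in CTut, 3.41 in KDut, 3.55 in CTtr and 3.98 in KDtr. KD was lower in the nuc pair and higher in the other two, so the mean difference of 0.0136 was far below its SD of 0.442 (exact sign-flip permutation p = 1.0, n = 3 pairs). In KDnuc, 88 of the 484 intronic peaks shared the lowest fold of that list, 4.11. Median lengths ran from 714 bp in KDnuc to 1364 bp in KDut.

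The 943 peaks fell into parts that behaved differently between CT and KD. A peak was called a tandem repeat when over 50% of its bases equalled the base a fixed distance of 2 to 400 bases further on. There were 80 such peaks, 1 in CTnuc, 1 in KDnuc, 18 in CTut, 18 in KDut, 22 in CTtr and 20 in KDtr. They were as many in CT as in KD, 41 against 39.

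Outside tandem repeats, 179 peaks lay on chromosome 18 from 30 to 40 Mb and 208 on chromosome 1 from 220 to 245 Mb, stretches that were delimited after their counts had been seen. On chromosome 18 they numbered 3 in CTnuc and 90 in KDnuc, 7 in CTut and 43 in KDut, and 20 in CTtr and 16 in KDtr, so the tr pair went the other way. On chromosome 1 they numbered 5 and 93, 13 and 51, and 7 and 39 in the same order, higher in KD in 3 of 3 pairs. The remaining 476 peaks numbered 30 and 300, 27 and 48, and 23 and 48, also higher in KD in 3 of 3 pairs. Without these stretches the share of intronic peaks was 0.82% in CTnuc and 4.14% in KDnuc, 1.28% in CTut and 2.44% in KDut, and 1.92% in CTtr and 2.98% in KDtr.

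Only 0.380% of all intron sequence of coding genes lay in the chromosome 18 stretch, which held 19.0% of the intronic peaks, or 44.3 per Mb of intron over the 6 lists. The chromosome 1 stretch held 1.08% of the intron sequence and, with its tandem repeats, 22.5% of the intronic peaks, or 18.5 per Mb. Over whole chromosomes there were 7.29 per Mb on chromosome 18, 3.2 on chromosome 1 and 1.57 on chromosome 6, while chromosomes 2, 8, 11 and 12 had between 0.104 and 0.128 per Mb. Intergenic peaks were also found in both stretches, 158 of 11535 in the chromosome 18 stretch and 134 in that of chromosome 1. Of them, the chromosome 18 stretch held 0 in CTnuc and 87 in KDnuc, and 5 in CTut and 43 in KDut, against 13 in CTtr and 10 in KDtr. The chromosome 1 stretch held 10 and 73, 7 and 25, and 6 and 13 intergenic peaks in the same order. The higher KD counts there were thus not limited to introns. G4 DNA-IPdenat, in which the antibody was applied to purified and denatured HEK293T DNA, had 0.924% of its intronic peaks in the chromosome 18 stretch and 3.38% in the chromosome 1 stretch. G4-ChIP, in which the antibody was applied to sheared chromatin, had 2.03% and 12.8% of its 148 intronic peaks there. The copy number of these stretches in the 2 cell lines was not tested.

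**Figure D2:**
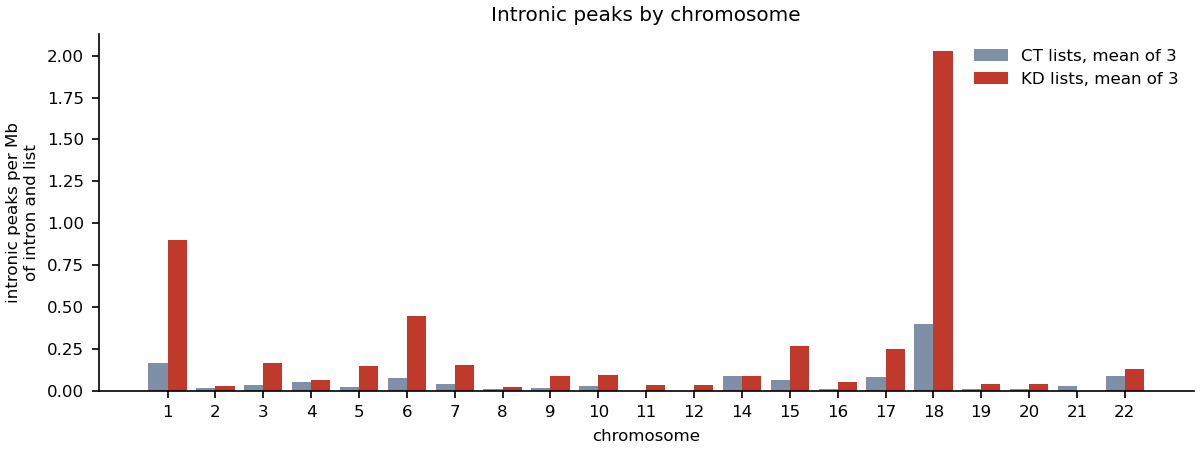
Bars give the number of intronic peaks per Mb of coding-gene intron and list on each chromosome used, as the mean of the 3 CT lists and of the 3 KD lists. Chromosome 18 stands highest, with 32 CT and 162 KD peaks, followed by chromosome 1 with 49 and 267.

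Intronic peaks hit 420 of 17226 coding genes with introns on the chromosomes used, or 2.44%, of which 19 are readthrough models that join neighbouring genes, and 40 peaks lay in more than 1 gene. Of the 420 genes, 301 were hit in a single list, 62 in 2 lists, 23 in 3, 18 in 4, 10 in 5 and 6 in all 6. KDnuc was the only list for 237 of the genes hit once. The CT lists together hit 96 genes and the KD lists 400, with 76 hit in both.

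The 6 genes hit in every list were GAREM1, ZNF717, CCDC200, RYR2, the readthrough model ENSG00000205236 and DUX4. GAREM1 (ENSG00000141441.16, chr18:32124877-32470882), an adaptor of growth factor receptor signalling, held 22 peaks, 2 in CTnuc, 8 in KDnuc, 2 in CTut, 4 in KDut, 3 in CTtr and 3 in KDtr. These lay at 19 separate regions, of which 3 were covered in more than 1 list, and their folds ran from 3.22 to 4.68. RYR2 (ENSG00000198626.18, chr1:237042184-237833988), the calcium release channel of heart muscle, held 13 peaks at 10 regions, 1 in CTnuc, 5 in KDnuc, 3 in CTut, 2 in KDut, 1 in CTtr and 1 in KDtr. Only 1 RYR2 region was shared, chr1:237075940-237077096, with folds of 5.67 in CTut, 4.23 in KDut, 6.08 in CTtr and 6.70 in KDtr, and none in the nuc lists.

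In ZNF717, CCDC200 and DUX4 a larger part of the regions was covered in more than 1 list. These were 3 of 8 regions in ZNF717, 3 of 7 in CCDC200 and 2 of 2 in DUX4, against 3 of 19 in GAREM1. ZNF717 (ENSG00000227124.11, chr3:75678660-75785583), a zinc finger gene, held 22 peaks at 8 regions, 4 in CTnuc, 6 in KDnuc, 2 in CTut, 3 in KDut, 3 in CTtr and 4 in KDtr. Its region chr3:75692111-75707561, 15451 bases long once overlapping peaks were merged, was covered in all 6 lists with folds between 3.35 and 5.06. CCDC200 (ENSG00000236383.9, chr17:43216941-43305397) held 15 peaks at 7 regions with folds between 4.08 and 6.97. DUX4 (ENSG00000260596.5, chr4:190173774-190185942), a transcription factor gene of a repeated array at the end of chromosome 4, held 8 peaks in 12.2 kb. Its region chr4:190180948-190181974 had folds of 19.0 in CTnuc and 21.8 in KDnuc, against 5.50 in CTut, 6.70 in KDut, 6.23 in CTtr and 8.67 in KDtr. The nuc lists thus stood well above the MinION lists there, and DUX4 also held the highest fold of CTnuc, 19.5, and of KDnuc, 23.1. The peaks with these highest folds equalled the base 68 bases further on at 47.6% and 47.2% of their bases. That is just under the limit of 50%, so they were not counted as tandem repeats. ZNF717, CCDC200, DUX4, LPA, CROCC, POTEG, POTEH, NBPF1 and ZNF595 are held to lie in duplicated sequence. Duplication was not measured here for these or other genes. Uniquely aligned reads can be placed on the wrong copy of such sequence, so the positions in these genes are uncertain.

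Among the 10 genes hit in 5 lists were NOL4, DNAH14, LPA, CROCC, PCSK6, TSNAX-DISC1, POTEG, FANK1 and FOXN3. NOL4, a nucleolar protein gene of the chromosome 18 stretch, held 17 peaks at 17 regions, so no position was shared, with 0 in CTnuc, 7 in KDnuc, 1 in CTut, 5 in KDut, 2 in CTtr and 2 in KDtr. DNAH14, an axonemal dynein heavy chain, held 10 peaks at 10 regions. The same pattern held for the readthrough model TSNAX-DISC1, with 7 peaks at 7 regions. LPA, which encodes apolipoprotein(a) with its repeated kringle domains, held 10 peaks at 6 regions. CROCC, which encodes the ciliary rootlet protein rootletin, held 9 peaks at 7 regions and PCSK6, a proprotein convertase, 9 at 5. POTEG held 6 peaks at 4 regions, while FANK1 and the forkhead repressor gene FOXN3 held 5 peaks each at 2 regions.

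The largest number of peaks was found in CCDC178, with 31, and the next largest in DTNA, which encodes the dystrophin partner dystrobrevin alpha, with 25. Both lie in the chromosome 18 stretch, were hit in 4 lists and were singled out after their values had been seen. CCDC178 had 0 in CTnuc, 12 in KDnuc, 0 in CTut, 11 in KDut, 5 in CTtr and 3 in KDtr. DTNA had 0, 14, 0, 7, 2 and 2 in the same order, at 25 regions. The tr pair again did not follow the rise seen in the nuc and ut pairs.

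**Figure D3:**
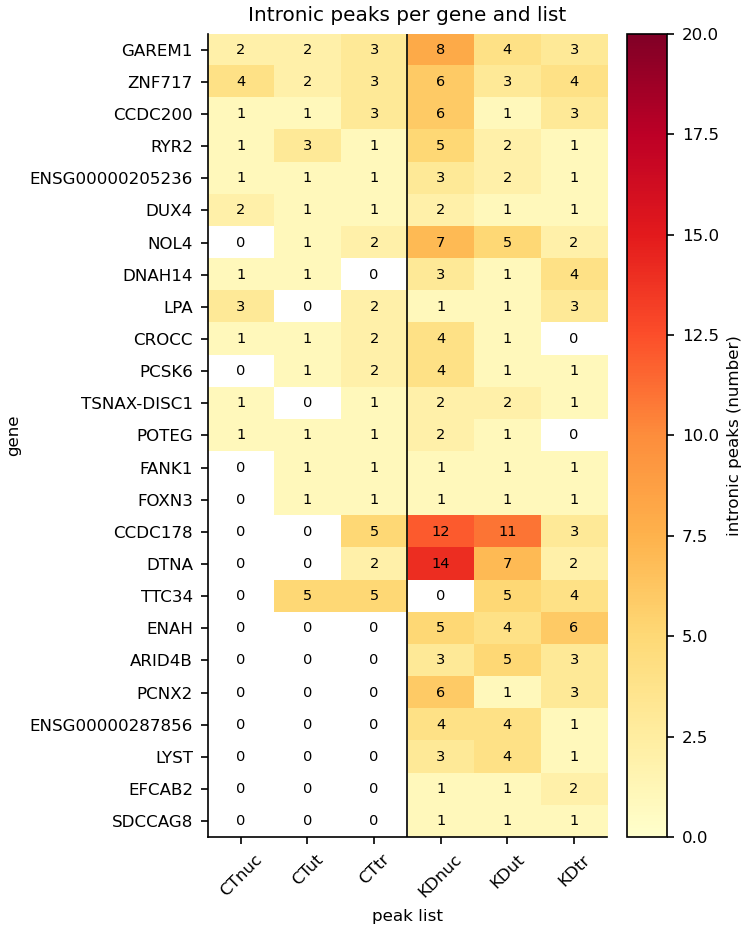
Each cell gives the number of intronic peaks of a gene in a list, with the CT lists left of the line and the KD lists right of it, and uncoloured cells are 0. The top 15 genes were hit in 5 or 6 lists, the bottom 7 in all 3 KD lists and no CT list, and CCDC178 reaches 12 in KDnuc.

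Hits to the same gene in several lists were thus of different kinds by place. Of 53 genes in the chromosome 18 and chromosome 1 stretches that were hit in at least 2 lists, 11 had a region covered by intronic peaks of more than 1 list. Of 66 such genes elsewhere, 41 did. Within a pair, 27 genes were hit in both CTnuc and KDnuc, which is 87.1% of the CTnuc genes and 8.21% of the KDnuc genes. CTut and KDut shared 30 genes, 57.7% and 29.7% of their genes, and CTtr and KDtr shared 33, 63.5% and 37.9%. By position, 18 of the 484 KDnuc peaks overlapped any CTnuc peak, 25 of the 160 KDut peaks any CTut peak and 32 of the 123 KDtr peaks any CTtr peak. Among the tandem repeat peaks the overlap was 13 of 18 for KDut and 17 of 20 for KDtr, and among the others 12 of 142 and 15 of 103.

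No merged intronic region was covered in all 3 KD lists and in no CT list by any listed peak, and none showed the reverse, out of 810 regions. Over all 9606 merged regions of the 6 lists, 0.0833% were in all 3 lists of 1 group and no list of the other, in either direction. Of the 810 regions, 706 (87.2%) were covered in 1 list, against 66.0% of all merged regions.

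By gene the count was 7. ENAH, ARID4B, PCNX2, LYST, EFCAB2, SDCCAG8 and the readthrough model ENSG00000287856 had intronic peaks in all 3 KD lists and in no CT list, which is 0.0406% of the 17226 genes, and 0 genes (0%) showed the reverse. When a gene was counted by any listed peak in its body, 0.0581% were in all 3 KD lists alone and 0% in all 3 CT lists alone, so a share of this size is the background of gene bodies in these lists. All 7 genes lie at least in part in the chromosome 1 stretch. PCNX2, EFCAB2, LYST and ARID4B each had a peak of another kind in 1 CT list, whereas ENAH, SDCCAG8 and ENSG00000287856 had none.

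ENAH, an actin regulator of the Ena/VASP family (ENSG00000154380.19, chr1:225486765-225653142), held the most, with 5 peaks in KDnuc, 4 in KDut and 6 in KDtr at 14 regions and folds of 3.26 to 4.41. ARID4B, a subunit of a chromatin repressor complex, held 3 in KDnuc, 5 in KDut and 3 in KDtr. PCNX2 held 6, 1 and 3, and LYST, the lysosomal trafficking gene of Chediak-Higashi syndrome, 3, 4 and 1. SDCCAG8, a centrosomal protein gene, held 1 in each KD list, with folds of 4.52, 3.26 and 3.89. None of the 7 genes had a fold above 4.88.

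Regions recurring in 4 or more lists were mostly tandem repeats, while those in 2 or 3 lists were mostly not. Of the 810 merged regions, 742 were made of intronic peaks of 1 list, 35 of 2 lists, 13 of 3, 17 of 4 and 3 of 6. Of the 20 regions in 4 or more lists, 14 were tandem repeats, against 3 of the 13 regions in 3 lists, 4 of the 35 in 2 lists and 9 of the 742 in a single list. In the list of 20, 18 were in all 4 MinION lists, and 15 of those were overlapped by no nuc peak, 13 of them tandem repeats. In the nuc lists the tandem share of intronic peaks was 2.56% in CTnuc and 0.207% in KDnuc, against 11.3% to 30.6% in the MinION lists. Among intergenic peaks it was 28.1% in CTnuc and 25.6% in KDnuc, against 38.4% to 48.1% in the MinION lists. The nuc lists are numbered to 10757 and 22266 while holding 3796 and 7753 peaks, so a part of the peaks was not listed, and whether these regions were among them was not tested. The sequencing platform and the added Control DNA differ between the nuc and the MinION lists and cannot be told apart.

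PTPRN2, a receptor-type protein tyrosine phosphatase of dense core vesicles, held the highest folds of KDut, CTtr and KDtr in an array of a 38-base unit at chr7:158146920-158149014. The folds were 8.30 in CTut, 9.90 in KDut, 10.1 in CTtr and 10.5 in KDtr. The unit carries runs of 5 and of 4 cytosines, and the array held a median of 263.5 overlapping CCC triplets per peak, yet no 4 runs stood within the loop limit. FAM120B had 9.18 in CTut, 8.64 in KDut, 9.82 in CTtr and 7.53 in KDtr in an array of a 39-base unit, and TMEM242 had 7.53, 7.71, 7.39 and 7.78 at a 34-base unit. TTC34 held 4 recurrent regions of a 40-base unit, the strongest with 9.51 in CTut, which is the highest fold of that list, 6.64 in KDut, 6.32 in CTtr and 6.17 in KDtr.

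Arrays with few or no triplets were also recurrent. TSNARE1 had 6.05 in CTut, 7.64 in KDut, 9.76 in CTtr and 9.81 in KDtr at an 18-base unit, with a median of 1 CCC per peak. MPPED1, with its 15-base unit, had 4.29 in CTut, 4.88 in KDut, 7.62 in CTtr and 6.09 in KDtr, higher in both tr lists than in the ut lists. FOXN3 had 5.98, 6.74, 7.53 and 6.03 in the same order. DOCK1, which encodes an activator of the small GTPase Rac, had 4.73, 4.65, 5.28 and 6.08. ACTN2, the alpha-actinin of heart and skeletal muscle, had 6.24, 5.32, 5.44 and 5.63 at a 67-base unit that holds a single GGG.

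At the 18 regions of all 4 MinION lists, the folds of KD did not differ from those of CT in one direction. These regions were chosen for having a peak in both CT and both KD lists. Peaks gained or lost in KD could thus not be among them. KD was higher than CT at 7 of the 18 regions in the ut pair, with a median ratio of 0.974 and a range of 0.659 to 1.26, and at 14 of 18 in the tr pair, with a median ratio of 1.05 and a range of 0.767 to 1.39. KD was higher in both pairs at 5 regions and lower in both at 2. The highest and the lowest of the 4 folds of a region differed by 1.31 times at the median, and by 1.78 times at most.

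**Figure D4:**
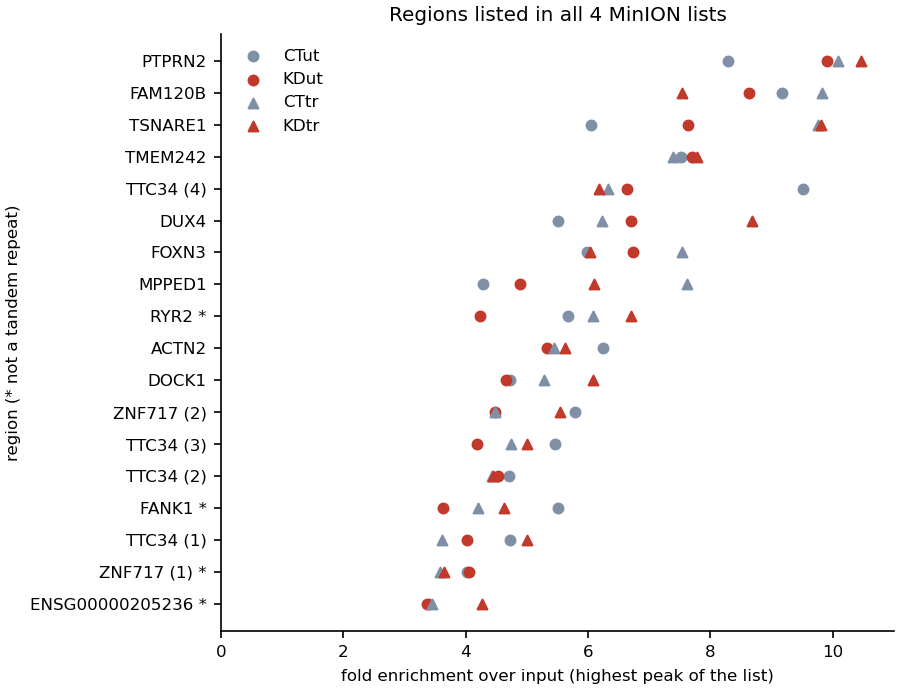
Points give the fold enrichment over the input of 18 regions in the 4 MinION lists, with the highest peak taken where a list has several in a region. CT and KD points are mixed at most regions, PTPRN2 reaches 10.5 in KDtr, and the regions marked with an asterisk are no tandem repeats.

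The recurrent arrays were mostly richer in guanine on the sense strand of their gene, the strand that reads like the transcript. The sense skew is the difference of guanine and cytosine over their sum on the gene's sense strand. It was above 0 in 24 of 30 tandem regions (80.0%), with a median of 0.231, and in 13 of the 14 that were in 4 or more lists, of which 4 lie in TTC34. Among 765 other regions in genes of a single orientation it was above 0 in 441 (57.6%), with a median of 0.0194. It was 0.997 in MPPED1, 0.929 in TSNARE1, 0.925 in FOXN3, 0.872 in DOCK1 and 0.646 in PTPRN2. It was negative in BTNL9, at -0.712, and in LMF1, which were chosen as among the lowest after their values had been seen and were each made of intronic peaks of 1 list. All 32 intronic peaks with a skew over 0.5 in either direction were tandem repeats, and so were all 19 peaks without any GGG or CCC. The rule that drops the signature acts on the same bases, so these values are descriptions.

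Compared with intergenic peaks of the same lists, chosen with the same limits, intronic peaks less often overlapped G4 DNA-IPdenat, G4-ChIP and other AbC G4-ChIP peaks. The intergenic peaks were not matched to the intronic ones in sequence, and centromeres and satellites were not left out. By list, tandem repeats made up 25.6% to 48.1% of the intergenic peaks and 0.207% to 30.6% of the intronic ones. Intronic peaks overlapped G4 DNA-IPdenat peaks in 15.4% of CTnuc, 1.86% of KDnuc, 24.6% of CTut, 11.9% of KDut, 23.6% of CTtr and 14.6% of KDtr. Intergenic peaks did so in 41.5%, 31.3%, 63.8%, 72.4%, 78.7% and 78.7%, in the same order. The mean difference was -45.7 percentage points ± 16.3 (SD, n = 6 lists), lower in 6 of 6 lists. The exact sign-flip permutation test over n = 6 lists gave p = 0.031, the smallest it allows, or 0.0391 adjusted by Benjamini-Hochberg over 5 comparisons.

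Overlap with G4-ChIP peaks was between 0.413% in KDnuc and 8.33% in CTtr for intronic peaks, and between 5.00% and 21.6% for intergenic ones, with a mean difference of -8.95 points ± 5.18. Overlap with another AbC G4-ChIP list was 59.0%, 10.1%, 49.2%, 27.5%, 62.5% and 35.8% for intronic peaks in the order above, and 82.1%, 55.8%, 72.3%, 91.9%, 97.3% and 95.7% for intergenic ones, a mean difference of -41.8 points ± 17.9. The difference in median fold was between -1.47 and -0.810 in the 6 lists, with a mean of -1.09 ± 0.234. Each of these was lower in 6 of 6 lists, with an adjusted p of 0.0391 (exact sign-flip permutation test, n = 6 lists). The calls do not hold at a minimum of 4 on the -log10 q, where the adjusted p was 0.0781 for G4 DNA-IPdenat, 0.234 for G4-ChIP, 0.104 for the fold and 0.25 for another list. They were also lost with chromosome 13 and the chromosome 9 stretch kept and with lists of equal size, and those on overlap were lost when 50% of the peak had to be shared. A list is not independent of its pair, since both share a protocol and the nuc pair an input.

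The overlap with other captures was unequal within the intronic peaks. Of the tandem repeat peaks, 90.0% overlapped another AbC list, 36.3% G4 DNA-IPdenat and 16 of the 80 G4-ChIP. Of the peaks in the chromosome 18 stretch, 10.1%, 2.79% and 0% did, and of those in the chromosome 1 stretch 7.21%, 7.21% and 4.33%. The G4 DNA-IPdenat list held 3789 intronic peaks by the same rule, 24.1% of that list, in 2247 genes. It shared 212 genes with the AbC lists, which is 50.5% of the AbC genes and 9.43% of its own, while 82 of the 943 AbC intronic peaks overlapped a G4 DNA-IPdenat intronic peak.

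Guanine triplets were more frequent in the intronic peaks than in intergenic peaks. The rule that drops the signature acts on such triplets, so their number is a description. Their median GC content was 41.7% in CTnuc, 42.1% in KDnuc, 39.0% in CTut, 38.0% in KDut, 40.9% in CTtr and 38.1% in KDtr, beside 41.1% over all intron sequence. Overlapping GGG and CCC triplets had a median of 21.7 per kb in the intronic peaks, against 8.09 per kb in intergenic peaks. By list the intronic median was 25.7 in CTnuc, 25.4 in KDnuc and 16.9 to 19.5 in the MinION lists. All intron sequence pooled held 26.6 per kb, which is a total over bases and no median of pieces. KD minus CT in median GC content was -1.16 points ± 1.61 (exact sign-flip permutation p = 0.5, n = 3 pairs). Against intergenic peaks the difference was 1.13 points ± 1.70, higher in 4 of 6 lists (adjusted exact sign-flip permutation p = 0.219, n = 6 lists). Tandem repeat peaks stood apart, with a median GC content of 56.7% against 39.8% in the others.

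Intronic peaks lay at a median of 3.12 kb from the nearest exon and 27.5 kb from the nearest coding transcript start. Genes that were hit had a median length of 139.8 kb, against 32.1 kb over all coding genes used, and genes over 200 kb held 44.2% of the peaks and 49.3% of the intron sequence. Of the 1396 genes over 200 kb, 148 (10.6%) were hit, against 842 (60.3%) in G4 DNA-IPdenat.

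Few genes of the listed families were hit in the AbC lists, as were few of all coding genes, 2.44%. At that share a count of 0 among 8 to 27 genes is no result about a family. Of 20 genes at common fragile sites, which include the longest genes of the genome, 0 were hit in the AbC lists and 18 in G4 DNA-IPdenat. Their median length was 1505 kb, and of all 65 genes over 1000 kb, 7 were hit in the AbC lists and 57 in G4 DNA-IPdenat. Of 27 synaptic adhesion and contactin genes 0 were hit against 15, of 25 glutamate receptor genes 0 against 11 and of 16 voltage-gated potassium channel genes 0 against 7. Of 8 genes of CTCF, cohesin and its loaders 0 were hit against 2. The few hits were as follows, each named because it was hit. Of 19 receptor-type protein tyrosine phosphatases, PTPRN2 was hit in 4 lists and PTPRK in KDnuc alone. Among 19 classical cadherins, CDH2 was hit in KDtr, and among 11 G-quadruplex helicases, BRIP1 was hit in KDnuc with a fold of 4.11. Over all 17226 genes, 2.44% were hit in the AbC lists and 13.0% in G4 DNA-IPdenat, which held 3789 intronic peaks against 943.

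Among genes with at least 4 peaks, the 8 with the highest density of peaks per intron length were the following. DUX4 had 78.9 peaks per 100 kb of intron over the 6 lists, ZNF717 23.1, POTEG 22.7, ZNF595 19.9, ENSG00000205236 19.6, NBPF1 15.7 and POTEH 15.1, and CCDC200 lay between POTEG and ZNF595. ENAH, the densest of the 7 genes hit in all 3 KD lists and no CT list, had 10.2.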

How the data were processed

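Peak lists of 9 captures were used, 6 of them AbC G4-ChIP. Input libraries were not analysed here. The authors aligned reads to hg38 (the methods name minimap2, and the supplement names bowtie2 for the Ion Torrent reads), kept uniquely aligned reads and called broad peaks with MACS2 against the input, per library. By the methods, the bandwidth set for peak calling was larger for the AbC lists and G4 DNA-IPdenat than for G4-ChIP. The fold enrichment, a ratio over the input, and the -log10 q of each peak were used as deposited by the authors. Columns of p-values and scores were not used.

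Peaks were placed by GENCODE version 44 and their sequence was read from hg38. Overlap means at least 1 shared bp. KD minus CT differences of the 3 pairs, whose lists share a protocol by their labels, and intronic minus intergenic differences of the 6 lists were tested by sign flips, in exact permutation tests. The lists hold no read totals, so none was rescaled, apart from cuts by -log10 q. The overlap functions and tests were tested on simulated data.

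The members, gene lists and tests were chosen with earlier results of these data known. Named genes are those hit in 5 or 6 lists, in all 3 lists of a group and none of the other (at most 8, by mean fold), those with the peak of highest fold in each list, the 8 densest with at least 4 peaks, members of the gene lists hit in 3 or more lists, and those of the 10 regions shared by most lists. Further genes are named as chosen later. Sequence of chromosome 8 is not shown, and some genes and sequences that the rule names are not reported here. Python 3.11.15, numpy 2.4.6, pandas 2.3.3, scipy 1.17.1 and matplotlib 3.10.9 were used. Alternatives were another minimum on q, other exon, start and loop limits, signature, chromosomes or tandem repeats treated otherwise, equal list sizes, each pair left out, and, added later, both stretches left out and another denominator.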

Additional observations from a re-analysis of the deposited data

Results flagged for a closer look

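Values of 3 kinds moved in opposite directions between the pairs, and these differences between pairs were not tested, since each rests on 1 or 2 pairs. The median fold of intronic peaks changed by -0.446 from CTnuc to KDnuc, while it rose by 0.0513 in the ut pair and by 0.436 in the tr pair. Their median GC content rose by 0.419 percentage points in the nuc pair, while it changed by -1.08 in the ut pair and -2.80 in the tr pair. The number of intronic peaks on chromosome 18 from 30 to 40 Mb changed by -4 in the tr pair, from 20 to 16, while it rose from 3 to 90 in the nuc pair and from 7 to 43 in the ut pair. Groups of 3 lists are too small for a test of single outlying lists.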

How the results depend on the processing

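The mean rise of intronic peaks in KD, in number, share, bases and genes, kept its direction in every alternative run, and p stayed at or above the smallest value that the pairs allow, while the mean difference in number fell to 14.3 with a -log10 q of at least 4. With that minimum the bases fell in the ut pair, from 71294 in CTut to 51380 in KDut, and rose in the other 2 pairs (exact sign-flip permutation p = 0.75, n = 3 pairs). Without the pairing, permuting the labels of 3 against 3 lists gave exact permutation p = 0.1, the smallest it allows. The mean difference of 197 peaks is the same with or without pairing. Neither test could pass the threshold, so no call could change. The median fold of KD minus CT, 0.0136, changed sign in several: it was -0.359 with a -log10 q of at least 4, -0.0381 with exons of coding genes only, -0.000337 with the signature kept, -0.192 with lists of equal size, -0.287 without both stretches, and from -0.197 to 0.244 with a pair left out. The median GC content of KD minus CT became 0.888 points with chromosome 13 and the chromosome 9 stretch kept.

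Of intronic minus intergenic differences, those in overlap with G4 DNA-IPdenat, with G4-ChIP and with another list and in median fold lost their calls. Their means kept the direction, but single lists did not always. With a -log10 q of at least 4, intronic peaks were higher in 2 of 6 lists for G4-ChIP and for another list. For the fold they were higher in 1 of 6 lists with that minimum. With lists of equal size they were higher in 1 of 6 lists for G4-ChIP and in 3 of 6 for another list. Overlap with G4 DNA-IPdenat stayed lower in 6 of 6 lists in both settings. With a -log10 q of at least 4 the mean differences were -24.2, -4.32 and -10.5 points and -0.576. With chromosome 13 and the chromosome 9 stretch kept they were -37.3, -3.12 and -23.1 points and -0.587. With lists of equal size they were -39.9, -6.53 and -21.2 points and -0.861. With 50% overlap the first 3 were -40.7, -4.31 and -42.1 points. Adjusted p over these and all other alternatives reached 0.312. With a pair left out, or tandem repeats, they ran from -54.7 to -38.8, -11.0 to -6.82 and -45.9 to -39.1 points and from -1.20 to -0.892, where 4 lists cannot give p below 0.125. The GC difference was 7.11 points with a -log10 q of at least 4, higher in 6 of 6 lists but with an adjusted p of 0.0781 (exact permutation test), -2.0 points with the left-out chromosomes kept, 3.69 and past the threshold without both stretches, and from -0.0697 to 1.83 without tandem repeats or a pair.

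Genes hit in 2 or more lists fell from 119 to 31 with the minimum on q and to 67 without both stretches, and those in 4 or more from 34 to 13 and 19. With chromosome 13 and the chromosome 9 stretch kept, 1 region was in all 3 CT lists and no KD list. The cause of these changes was not tested. The remaining 143 of 186 values were labelled as unchanged. Those of KD minus CT could not cross the threshold, since their p could not fall below 0.1 in any setting. Counts of regions and genes had no p and were judged by their size alone. Sequencing depth was not used here, so no limit from it is given.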
